A study of Mus musculus with 16 samples.

Results

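The comparison described here is that of MPI-2 cells exposed to Mycobacterium abscessus with uninfected MPI-2 cells, both sampled at day 5. Its members are the 8 day 5 libraries of the 16 in the series, 4 exposed and 4 uninfected, chosen by their labels. The other 8 libraries are the same conditions at day 1 and were not used in the main fit. MPI-2 is a mouse line of alveolar-like macrophages of wildtype genotype, and all groups shared the same medium with GM-CSF at 0.6 µg/mL, in passages 8 to 50. Polyadenylated RNA (2 µg for each sample) was sequenced. The replicates are labelled as biological but come from 1 cell line, so that p-values measure the spread between these cultures. How many bacteria were added, of which strain, and how many cells took them up are not given in the sources used here, and each value is an average over a whole culture. In such bulk samples, fewer cells of a kind and less RNA per cell cannot be told apart.

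Alveolar macrophages clear particles and microbes from the airspaces and depend on GM-CSF, whose signal maintains the lipid-handling regulator PPAR-gamma. Mycobacteria are sensed through Toll-like receptors, C-type lectins and cytosolic sensors, and their adaptors activate NF-kB and interferon regulatory factors. Secreted type I interferon then acts back on the cells through its receptor and induces antiviral genes. Macrophage activation is known to draw cells out of the cell cycle, which E2F factors control on entry into S phase and the DREAM and FOXM1-MYB complexes control at mitosis. Cells that leave the cycle for good are often recognised by raised CDK inhibitors, loss of lamin B1 and secretion of inflammatory proteins.

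A total of 16321 genes passed the filter on low counts and were tested with edgeR's quasi-likelihood test, and a gene is said to have risen or fallen where its Benjamini-Hochberg adjusted p was under 0.05. By that rule 4187 genes (25.7% of those tested) rose and 3998 (24.5%) fell, and these shares are the background against which the gene groups below should be read. At least 2-fold changes numbered 2176 upward (13.3%) and 1417 downward (8.68%), and at least 8-fold changes 599 upward and 105 downward. The median log2 fold change over all tested genes was 0.03, where fold changes are of exposed over uninfected cells. Genes that rose at least 2-fold took 18.6% to 23.9% of all counts in the exposed libraries and 6.27% to 6.51% in the uninfected ones. Those that fell at least 2-fold took 2.67% to 3.96% and 10.0% to 10.8%.

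**Figure D1:**
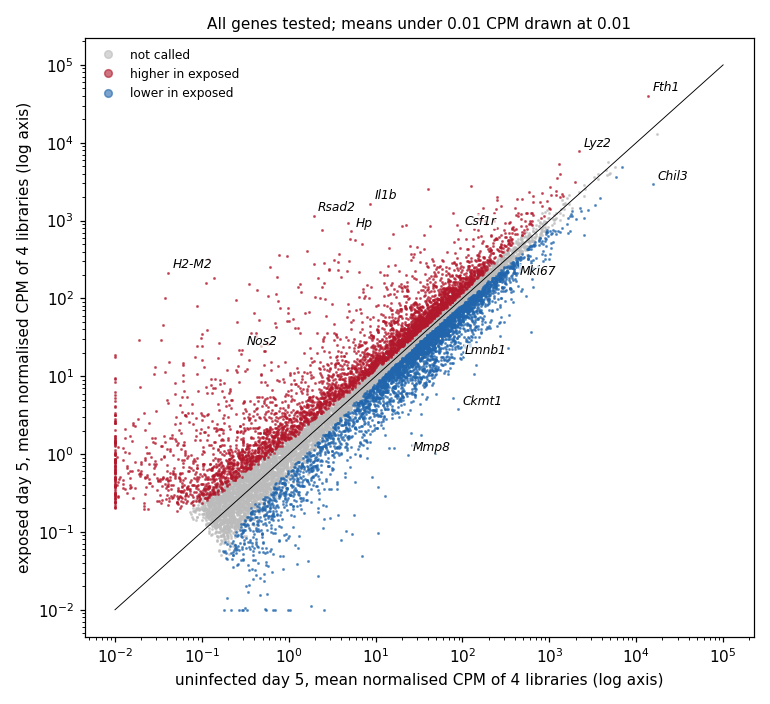
Mean normalised CPM (read counts scaled by library size) over 4 libraries of all 16321 tested genes, uninfected cells on the horizontal and exposed cells on the vertical axis, both logarithmic. Red points rose (4187 genes), blue points fell (3998), grey points were not called, and the line marks equal levels. Means under 0.01 CPM are drawn at 0.01.

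Library totals lay between 54252976 and 81284210 counts. Principal component analysis set the groups apart on component 1 (78.7% of the variance), with scores of 59.2 to 97.3 for exposed and -82.9 to -79.4 for uninfected libraries. Exposed libraries also differed more among themselves: the median standard deviation of log2 CPM was 0.28 over exposed and 0.14 over uninfected replicates, and 80.6% of genes varied more among the exposed. Exposed replicates 2 and 3 carry another library code than the rest. On component 2 (8.59% of the variance) these replicates lay farthest apart, at -45.4 and 57.1, with exposed replicates 1 and 4 at 12.3 and -14.6. On the third component (4.21% of the variance) replicates 2 and 3 scored -31.2 and -18.9, against 20.5 and 31.3 for exposed replicates 1 and 4. Code numbers of the remaining libraries run in separate sets for replicates 1 and 2 and for replicates 3 and 4, and what the codes stand for is not given in the sources used here. Uninfected values of some genes lay apart between the same sets, such as those of Chil3, Ckmt1 (75.0, 72.7, 104.4 and 98.8 CPM) and mt-Co1 (5974, 6133, 7490 and 7684 CPM) in replicates 1 to 4. Within replicates 1 and 2 alone 2560 genes rose and 2485 fell, and within replicates 3 and 4 alone 2337 rose and 1871 fell. Without exposed replicates 2 and 3, which carry the other code, 4235 rose and 4406 fell. That fit kept 89.3% of the higher and 93.7% of the lower calls made with all libraries. Mitochondrially encoded genes took 0.904% ± 0.195 of counts in exposed and 1.58% ± 0.119 in uninfected libraries (SD, n = 4 each, exact two-sided permutation p = 0.0286, the smallest that 4 against 4 allows, or 0.0524 adjusted over 11 library shares). After that adjustment 0 of the 11 shares passed with all libraries and 8 passed without exposed replicate 2. Every share whose groups lay fully apart had this smallest p, so that passing depended on how many shares lay apart. The count of 0 therefore does not mean that the shares were alike. Beyond such fits with libraries left out, the part of these differences in the results below was not tested.

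Values per library are CPM after TMM scaling, given in the order of replicates 1 to 4, exposed cells before uninfected ones unless a gene is said to fall from its uninfected to its exposed values. Beside a CPM value ± gives the standard deviation over 4 libraries, and beside a log2 fold change its standard error. Il1b (ENSMUSG00000027398.14), a fever-inducing cytokine released through inflammasomes, stood at 769.3, 2357, 1277 and 2213 CPM in exposed and at 9.81, 8.11, 7.64 and 9.0 CPM in uninfected cells, a 191.3-fold rise (log2 fold change 7.58 ± 0.40, adjusted p = 2.27e-07). Hp (ENSMUSG00000031722.11), haptoglobin, which binds free haemoglobin, stood at 854.2, 754.3, 755.4 and 544.9 and at 5.89, 5.76, 4.6 and 4.71 CPM (7.12 ± 0.20, adjusted p = 2.01e-09). Exposed replicates 2 and 4 were the highest for Il1b, whereas replicate 1 was the highest and replicate 4 the lowest for Hp. Mmp8 (ENSMUSG00000005800.4), a collagenase, fell from 27.3, 27.6, 21.3 and 18.6 CPM in uninfected to 0.833, 1.14, 0.958 and 0.933 CPM in exposed cells (-4.62 ± 0.18, adjusted p = 2.52e-08). Lmnb1 (ENSMUSG00000024590.9), which encodes lamin B1 of the inner nuclear membrane, fell from 106.4, 100.9, 90.0 and 75.4 to 26.4, 11.2, 17.1 and 13.4 CPM (-2.45 ± 0.25, adjusted p = 2.01e-05). For none of these 4 genes did exposed and uninfected libraries overlap. Of all genes tested, 23.4% had every exposed library above the uninfected ones and 24.8% had every one below.

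**Figure D2:**
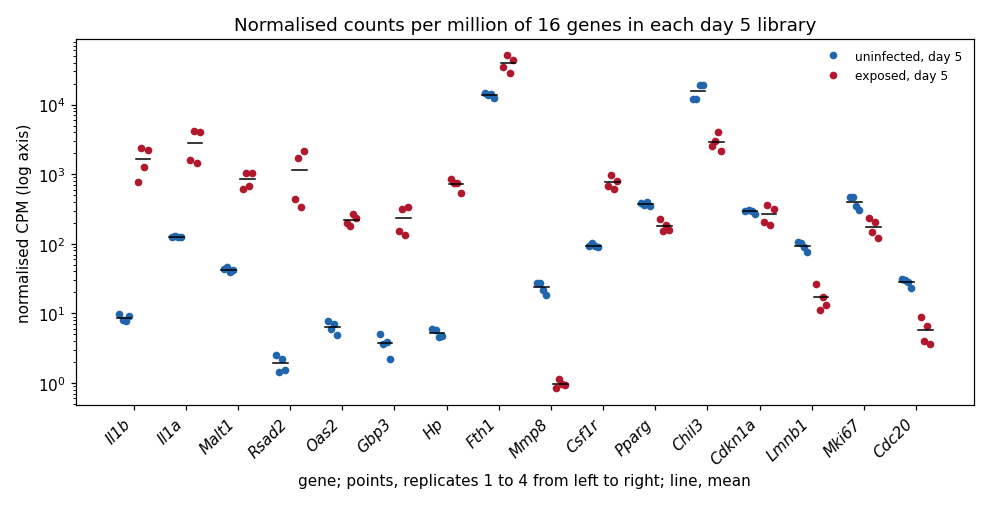
Normalised CPM on a logarithmic axis of 16 genes in each of the 8 day 5 libraries (points, replicates 1 to 4 from left to right) with the mean of each group (lines). Exposed and uninfected libraries lie apart for every gene shown other than Cdkn1a, whose exposed values of 184 to 358 CPM enclose the uninfected values of 268 to 303 CPM. The genes shown were picked, and over all genes tested libraries lie apart in 23.4% (exposed above) and 24.8% (exposed below).

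Of 20 tested Toll-like receptors and adaptors 11 rose and 5 fell (median log2 fold change 0.42). Tlr2 (ENSMUSG00000027995.11), the receptor for mycobacterial lipoproteins, stood at 377.7, 521.5, 289.3 and 518.7 and at 118.9, 113.1, 127.5 and 104.2 CPM (1.88 ± 0.18, adjusted p = 9.12e-06). Its co-receptor Cd14 rose 14.8-fold, from 13.3 ± 2.51 to 198.4 ± 100.4 CPM. The kinase Irak2, which prolongs the signal, rose by 1.27 on the log2 scale and Irak3, which lacks kinase activity and restrains it, by 2.45. Tlr5, Tlr8, Tlr9, Tlr13 and Irak4 fell, with log2 fold changes of -2.63, -1.36, -1.80, -0.88 and -0.64. Tlr4, the receptor for lipopolysaccharide, had 0 counts in all 8 libraries. A count of 0 over the 4 exposed libraries allows up to 0.0115 CPM (3 counts, counting error only).

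Among C-type lectin receptors and their signalling path 9 of 17 genes rose and 5 fell (median 0.39), or 3 fell without exposed replicate 4. Clec4e (ENSMUSG00000030142.11), which encodes Mincle, the receptor for the mycobacterial glycolipid trehalose dimycolate, stood at 449.5, 1391, 675.3 and 1045 and at 22.5, 22.4, 20.4 and 25.0 CPM, a 39.4-fold rise (5.30 ± 0.34, adjusted p = 9.1e-07). Its partner Clec4d rose 15.7-fold and the beta-glucan receptor Clec7a (Dectin-1) 5.42-fold. Downstream of these receptors Malt1 (ENSMUSG00000032688.10), the paracaspase that relays their signal to NF-kB, stood at 619.5, 1047, 679.9 and 1047 and at 42.7, 45.9, 39.7 and 41.8 CPM (4.32 ± 0.20, adjusted p = 6.16e-08). Of its partners in that relay, Bcl10 was not called (0.37, adjusted p = 0.0883) and Card9 fell (-0.52). The mannose receptor Mrc1 was among those that fell (366.4 ± 65.5 to 99.4 ± 25.8 CPM).

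Cytosolic sensors were mostly higher, with 15 of 19 risen and 1, Nod1, fallen (-0.45), or 2 fallen without exposed replicate 2 or uninfected replicate 4. The RNA sensor Rigi rose 12.2-fold, its regulator Dhx58 7.15-fold, the Z-nucleic acid sensor Zbp1 6.53-fold and the peptidoglycan sensor Nod2 3.79-fold. Of the inflammasome genes, Casp4, the sensor caspase for lipopolysaccharide in the cytosol, rose by 3.28 on the log2 scale, and Casp1 and Nlrp3 by 1.22 and 0.70. Pycard, the adaptor that joins sensors to caspase-1, had 2 counts over the 4 exposed libraries and 1 over the uninfected ones. Scavenger, Fc and clearance receptors had 7 of 19 risen and 4 fallen, or 2 fallen without exposed replicate 1 and 2 without uninfected replicate 3. The oxidised-lipid receptor Olr1 rose from 421.5 ± 28.4 to 1921 ± 433.6 CPM and the lipoprotein receptor Scarb1 fell from 343.6 ± 23.6 to 172.4 ± 17.2 CPM. Stab1, a clearance receptor, rose 37.7-fold to a level of no more than 6.54 ± 1.27 CPM.

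Of 28 tested cytokine genes 20 rose and 3 fell, with a median log2 fold change of 3.30. Il1a (ENSMUSG00000027399.2), interleukin-1 alpha, an alarmin that shares its receptor with Il1b, stood at 1575, 4237, 1470 and 3992 and at 126.6, 127.9, 126.4 and 124.9 CPM (4.48 ± 0.38, adjusted p = 5.93e-06). Inhba (ENSMUSG00000041324.15), the activin A subunit of the TGF-beta family, stood at 1724, 3136, 1409 and 3832 and at 40.8, 41.6, 34.2 and 44.8 CPM (5.97 ± 0.35, adjusted p = 3.78e-07). In each of them exposed replicates 2 and 4 were the highest. The same order held for Tnf, the macrophage-activating cytokine tumour necrosis factor, at 391.2, 1009, 323.5 and 958.8 CPM, and for Il6, at 18.9, 117.2, 32.0 and 93.9 CPM, against at most 16.5 and 0.563 CPM in any uninfected library. Tnfsf15, a TNF-family ligand of T cells, rose 75.8-fold, and Il23a, a subunit of interleukin-23, 27.2-fold from 0.118 ± 0.0376 CPM. Il23r, a receptor subunit of that cytokine, had 3 counts in uninfected and 4700 in exposed cells, a ratio of 1766 (95% interval from counting error 604.0 to 8568). All 3 came from uninfected replicate 1, and without it Il23r was at least 1285-fold higher. Csf2, which encodes GM-CSF, had 0 counts in uninfected cells and was at least 622-fold higher in exposed ones, taking 3 counts over the 4 uninfected libraries as the floor. Its exposed values were 1.73, 12.6, 2.41 and 8.43 CPM, and without exposed replicate 2 the bound was 393.7-fold. Il18, Il15 and Il33 fell (-1.52, -0.63 and -1.50). Il10, the anti-inflammatory cytokine, did not pass the filter, with 5 counts over the 4 exposed libraries and 0 over the uninfected ones.

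Among chemokines 15 of 17 tested genes rose, with a median of 3.57. Summed over the 25 listed genes, however, levels overlapped, at 16230 to 23820 CPM in exposed and 17450 to 22200 CPM in uninfected libraries. Cxcl14, at 0.389, 0.436, 0.248 and 0.153 and 0.374, 0.788, 0.646 and 0.711 CPM, was called lower (-1.02), but without exposed replicates 1 or 4, or uninfected replicates 2, 3 or 4, 0 chemokines were. Ccl9 (ENSMUSG00000019122.9), a macrophage chemokine already abundant in these cells, stood at 4228, 5418, 7691 and 4082 and at 1191, 1133, 1253 and 1526 CPM (2.07 ± 0.21, adjusted p = 1.52e-05). Cxcl2, a neutrophil attractant, rose 98.4-fold, from 5.76 ± 0.567 to 567.3 ± 417.8 CPM, and Ccl17, an attractant of T cells, 29.7-fold to 6.13 ± 1.83 CPM. Ccl2, the monocyte attractant, stood at 15.3, 114.4, 28.9 and 132.1 and at 5.15, 4.53, 8.11 and 8.48 CPM, so that the lowest exposed library was less than 2 times the highest uninfected one.

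NF-kB subunits and feedback inhibitors had 20 of 22 risen and 1, Zfp36, fallen (-1.10), with a median of 1.88. Zfp36 encodes tristetraprolin, which destabilises cytokine mRNA. Without exposed replicate 2, 2 genes of the list fell. Tnip3 (ENSMUSG00000044162.13), an inhibitor that binds A20, stood at 87.3, 138.8, 117.0 and 88.9 and at 0.611, 0.576, 0.484 and 0.666 CPM (7.53 ± 0.21, adjusted p = 2.01e-09). Tnfaip3, which encodes A20, rose 14.5-fold, the inhibitor Nfkbie 11.8-fold and Relb, a subunit of the slower alternative pathway, 6.58-fold. All 4 exposed libraries were above all 4 uninfected ones for 20 of the 22 genes, against 23.4% of all genes tested.

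The promoters of Il6 and Cxcl2 are shown because each holds a match to an NF-kB motif. The windows are the 200 bases before the RefSeq start, in GRCm38.p6, read 5′ to 3′ on the gene's strand, and capitals mark the matches. Il6 is at chr5:30012914-30013113 (plus strand) and Cxcl2 at chr5:90903699-90903898 (plus strand), where 2 overlapping matches run together.
Il6: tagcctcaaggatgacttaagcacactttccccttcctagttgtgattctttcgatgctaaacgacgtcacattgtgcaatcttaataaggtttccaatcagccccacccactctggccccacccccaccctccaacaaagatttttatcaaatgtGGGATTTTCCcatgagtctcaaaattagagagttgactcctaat
Cxcl2: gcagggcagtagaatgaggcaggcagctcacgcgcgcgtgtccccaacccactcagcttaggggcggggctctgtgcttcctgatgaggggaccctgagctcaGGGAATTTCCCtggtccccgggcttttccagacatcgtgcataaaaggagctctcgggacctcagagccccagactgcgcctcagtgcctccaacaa
The letters GGGA, any 2 bases and TTCC, searched on both strands from 250 bases before to 50 after each start, were found in 4 of 28 promoters of the cytokine list (14.3%), 4 of 17 of the chemokine list (23.5%) and 1.47% of all 32851 promoters. For these lists 23 of 30 and 17 of 25 genes had a promoter in the table. A match of letters is a description and does not show binding.

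Receptors for these ligands moved in both directions, with 17 of 30 cytokine receptors and SOCS proteins risen and 9 fallen, or 5 fallen among the fewer genes that reach 1 CPM in 4 libraries. Csf1r (ENSMUSG00000024621.17), the receptor for M-CSF, stood at 679.6, 986.3, 603.6 and 796.6 and at 91.8, 104.0, 92.7 and 88.5 CPM, an 8.13-fold rise (3.02 ± 0.16, adjusted p = 1.22e-07). For GM-CSF the signalling chain Csf2rb rose from 1342 ± 41.7 to 3944 ± 326.5 CPM and the binding chain Csf2ra from 313.2 ± 19.3 to 472.2 ± 25.3 CPM. Il21r rose 22.3-fold and the common gamma chain Il2rg 4.33-fold. Il6ra, the interleukin-6 receptor, fell 6.18-fold, from 18.6 ± 2.05 to 3.00 ± 0.566 CPM, while Il6 itself rose. Csf3r, the G-CSF receptor, fell by 2.27 on the log2 scale while its ligand Csf3 rose by 6.34. Of 13 chemoattractant receptors 7 rose and 5 fell: the atypical receptor Ccrl2 stood at 104.3, 294.6, 81.1 and 258.4 and at 2.39, 1.71, 2.57 and 2.06 CPM, whereas Ccr2, the receptor for Ccl2, fell from 1.29 ± 0.136 to 0.0613 ± 0.0432 CPM. Fpr2, a receptor for formyl peptides, rose 3.67-fold, and Cxcr4 2.23-fold.

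All 32 type I interferon-stimulated genes rose at least 2-fold, with a median log2 fold change of 6.42, and 16 of 17 interferon-inducible GTPases rose (median 5.98). Gbp8 was the exception among the GTPases (0.42, adjusted p = 0.074). Rsad2 (ENSMUSG00000020641.17), the antiviral enzyme viperin, stood at 442.7, 1698, 338.1 and 2121 and at 2.56, 1.43, 2.22 and 1.51 CPM (9.21 ± 0.74, adjusted p = 4.6e-06). Oas2 (ENSMUSG00000032690.17), which makes an activator of RNase L, stood at 200, 177.8, 270.2 and 230.7 and at 7.73, 5.94, 6.92 and 4.95 CPM (5.10 ± 0.19, adjusted p = 2.45e-08). Viperin thus spread over 338 to 2121 CPM among exposed cultures, whereas Oas2 kept to 178 to 270 CPM. Gbp3, a guanylate-binding protein that attacks pathogen vacuoles, stood at 151.8, 318.5, 132.1 and 336.9 and at 5.12, 3.62, 3.84 and 2.22 CPM, and Trim30a, a restraint on Toll-like receptor signals, rose 59.6-fold. Ifnb1, which encodes interferon beta, was at 0.712, 2.85, 1.06 and 1.90 CPM in exposed cells and at 13 counts in all over the uninfected libraries. How reads shared by close paralogs in the Oas, Ifit, Gbp and Tgtp families were counted is not given in the sources used here. Levels of single members are therefore less certain.

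Promoters of 3 interferon-stimulated genes are shown for their matches to the interferon-stimulated response element, in the same build and orientation, the 200 bases before the start with matches in capitals. Isg15, a ubiquitin-like modifier (3.73 ± 0.745 to 291.5 ± 136.3 CPM), is at chr4:156200819-156201018 (minus strand) with 3 overlapping matches. Rsad2 is at chr12:26456453-26456652 (minus strand). Ifit1, which binds viral RNA (2.42 ± 1.04 to 746.7 ± 464.3 CPM), is at chr19:34640689-34640888 (plus strand).
Isg15: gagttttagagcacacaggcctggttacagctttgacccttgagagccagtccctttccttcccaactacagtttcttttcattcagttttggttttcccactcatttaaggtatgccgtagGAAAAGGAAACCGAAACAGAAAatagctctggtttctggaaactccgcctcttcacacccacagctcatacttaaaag
Rsad2: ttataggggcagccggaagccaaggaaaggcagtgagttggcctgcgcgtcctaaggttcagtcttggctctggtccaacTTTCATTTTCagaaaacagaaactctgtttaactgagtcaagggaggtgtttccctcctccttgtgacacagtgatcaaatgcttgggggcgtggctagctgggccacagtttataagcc
Ifit1: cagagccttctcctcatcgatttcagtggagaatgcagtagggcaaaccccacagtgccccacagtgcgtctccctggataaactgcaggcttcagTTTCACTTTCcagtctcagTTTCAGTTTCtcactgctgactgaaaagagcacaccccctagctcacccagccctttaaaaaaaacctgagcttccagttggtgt
The letters GAAA, any 2 bases and GAAA, on either strand, were found in 13 of 27 promoters of the interferon list (48.1%, 23 of 32 genes having a promoter in the table) and in 3.44% of all 32851 promoters. The NF-kB letters were in 2 of the same 27 (7.41%).

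**Figure D3:**
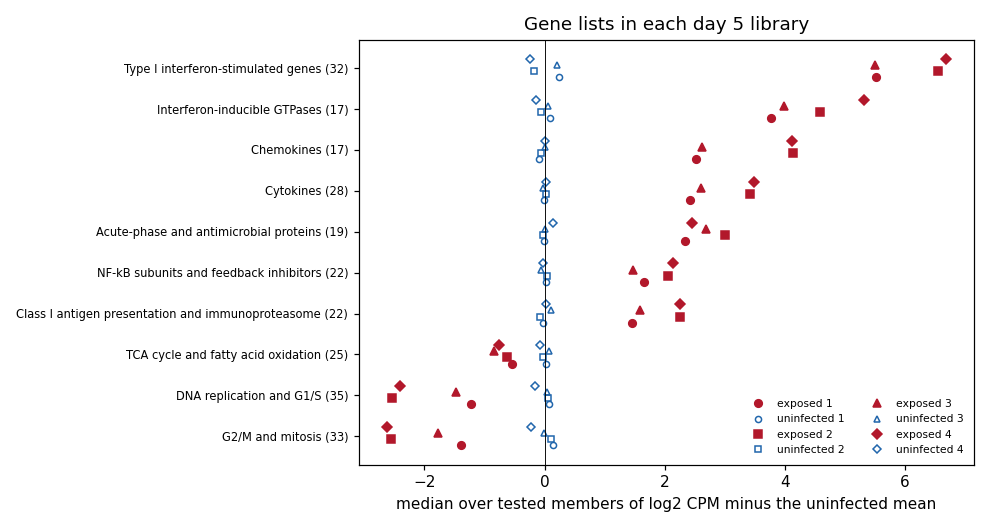
Each symbol is the median, over the tested members of a gene list (number in brackets), of log2 CPM in 1 library minus the mean of the uninfected libraries. Filled red symbols are exposed and open blue symbols uninfected replicates. The interferon list lies at 5.50 to 6.67 in exposed libraries, with replicates 2 and 4 at the right, and the same replicates lie at the left for both cell cycle lists.

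Exposed replicates were not equal in depth of response. Median log2 shifts of the interferon list over the uninfected mean were 5.51, 6.55, 5.50 and 6.67, and those of the chemokine list 2.52, 4.14, 2.61 and 4.12. For the cytokine list they were 2.43, 3.42, 2.61 and 3.48, and for the NF-kB list 1.66, 2.06, 1.46 and 2.14. Replicates 2 and 4 thus had the highest medians in each of these 4 lists, but single members differed. Of 28 cytokine genes 1, 13, 8 and 6 were highest in exposed replicates 1 to 4, and of 17 chemokines 0, 6, 3 and 8. The G1/S list gave -1.22, -2.54, -1.47 and -2.41 and the G2/M list -1.39, -2.56, -1.77 and -2.62, with replicates 2 and 4 the lowest. The order differed for acute-phase genes (2.34, 3.00, 2.68 and 2.45) and for the TCA cycle and fatty acid oxidation list (-0.54, -0.62, -0.84 and -0.76). The replicates with the larger inflammatory values were noticed in these data, and no test of the order was made.

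Of the genes measured at 20 CPM or more in exposed cells, those that varied most between exposed cultures were Gm2000, Nos2, Ccl2, Ifi205, Mmp13, Rsad2, Ifit2 and Ifi206. Nos2, inducible nitric oxide synthase, stood at 3.14, 50.2, 5.12 and 28.6 and at 0.224, 0.212, 0.248 and 0.489 CPM, and its log2 fold change of 6.22 ± 0.94 was 5.41 without exposed replicate 2. Mmp13, a collagenase, stood at 116.2, 843.6, 188.4 and 627.5 and at 14.6, 13.8, 13.9 and 15.0 CPM. In 7 of these genes replicates 2 and 4 were the highest. Gm2000, a predicted gene, was the exception, at 6.07, 85.6, 131.5 and 6.60 and at 4.03, 4.32, 4.39 and 5.82 CPM: it was high in the replicates with the other library code, and without them its log2 fold change of 3.63 ± 0.91 was 0.44 and not called (adjusted p = 0.0562).

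Class I antigen presentation rose almost as a block, with 21 of 22 genes risen, 0 fallen and a median of 1.92. Nlrc5 (ENSMUSG00000074151.14), the transactivator of class I genes, stood at 34.9, 56.4, 42.9 and 75.8 and at 0.536, 0.47, 0.522 and 0.281 CPM (6.84 ± 0.31, adjusted p = 8.65e-08). H2-M2, a nonclassical class I gene, stood at 113.0, 270.4, 159.3 and 313.7 CPM in exposed cells against 12 counts in all over the uninfected libraries. H2-Q4 rose 8.12-fold. How reads shared between class I genes were assigned is not given in the sources used here. Class II and costimulation genes split into risen (10), fallen (4) and not called (6) among 20. The T-cell costimulator Icosl rose 3.83-fold, the adhesion ligand Icam1 3.40-fold and the galectin Lgals9 5.71-fold, while Vsir, an inhibitory ligand, fell 2.33-fold. Ciita, the class II transactivator, fell (-0.68), and H2-Ab1 and Cd74 were not called (0.19, adjusted p = 0.631, and 0.41, adjusted p = 0.116).

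Acute-phase and antimicrobial genes had 15 of 19 risen and 1 fallen (median 2.45). The fallen gene was S100a9 (-0.88). Without exposed replicate 3, or without both libraries of the other code, 2 were called lower. Saa3, a serum amyloid, stood at 69.8, 121.8, 128.2 and 138.6 and at 0.548, 0.607, 0.894 and 0.77 CPM. Lyz2 (ENSMUSG00000069516.9), lysozyme, was already abundant and went from 2200 ± 266.9 to 7723 ± 2610 CPM (1.81 ± 0.24, adjusted p = 8.55e-05). Chil1 rose 102.4-fold from 0.0624 ± 0.0178 CPM. Camp and Ngp, granule proteins of neutrophils, rose to 4.29 ± 1.39 and 3.33 ± 0.411 CPM. The neutrophil marker list as a whole summed to 454 to 941 CPM in exposed and 600 to 753 CPM in uninfected libraries, 5 of its 13 genes (Elane, Prtn3, Ctsg, Ly6g and Retnlg) did not pass the filter, 2 of 8 tested rose and 4 fell, or 4 rose without exposed replicate 2, and Mpo, myeloperoxidase, fell from 3.17 ± 0.398 to 0.631 ± 0.354 CPM.

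The gene with the largest rise in mean CPM of all called genes belonged to iron handling. Fth1 (ENSMUSG00000024661.8), the ferritin heavy chain that stores iron, stood at 35300, 51120, 28610 and 44030 and at 14660, 13870, 14020 and 12360 CPM (1.53 ± 0.20, adjusted p = 8.27e-05). The light chain Ftl1 was not called (0.02, adjusted p = 0.943). Alas1, the entry enzyme of haem synthesis, stood at 1417, 2364, 1427 and 2203 and at 272.6, 259.8, 250.8 and 207.5 CPM, and Slc25a37 (mitoferrin-1), which brings iron into mitochondria, at 384.5, 317.6, 532.3 and 469.5 and at 37.7, 39.1, 30.6 and 35.5 CPM. The iron importer Slc11a2 rose 4.37-fold and Cp, the ferroxidase ceruloplasmin, 44.8-fold. Slc40a1 (ferroportin), the cellular iron exporter, fell by 1.13 on the log2 scale. In the list of 18 genes, 8 rose and 4 fell.

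The list of itaconate, nitric oxide, arginine and tryptophan enzymes had 5 of 16 risen and 5 fallen (median -0.01), near the shares of all genes, or 3 fallen without uninfected replicate 4. Acod1 (ENSMUSG00000022126.7), which makes itaconate, stood at 335.9, 857.9, 322.2 and 831.5 and at 5.81, 6.16, 4.42 and 4.12 CPM (6.84 ± 0.42, adjusted p = 7.04e-07). Ass1, which recycles citrulline to arginine, rose 4.65-fold and Gch1, which makes the cofactor of nitric oxide synthase, 2.11-fold, whereas Odc1, the first enzyme of polyamine synthesis, fell 2.03-fold. Arg1 stood at 19.2, 19.8, 61.0 and 9.28 and at 34.2, 29.6, 67.1 and 93.8 CPM and was not called (-1.04, adjusted p = 0.134), but it was lower without exposed replicate 3 (-1.80, adjusted p = 0.0141). Within the NADPH oxidase the catalytic subunit Cybb rose from 278.7 ± 22.8 to 1548 ± 347.4 CPM and Cyba and Ncf4 rose 2.18-fold and 2.92-fold, while the GTPase Rac1 fell 1.67-fold. Of these 7 oxidase genes 2 fell without exposed replicate 2, without uninfected replicate 4, or without both libraries of the other code.

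Antioxidant genes, with 8 of 24 risen and 7 fallen (median 0.04), were near the shares of all genes. Sod2, the mitochondrial superoxide dismutase, rose 5.23-fold and the cystine importer Slc7a11 9.80-fold. Gclc, which catalyses the first step of glutathione synthesis, fell from 104.6 ± 1.34 to 40.4 ± 2.23 CPM and Gsr, which regenerates glutathione, from 610.9 ± 9.99 to 235.5 ± 42.7 CPM. Among prostaglandin and leukotriene enzymes 3 of 14 rose and 9 fell (median -0.65). Alox5 (ENSMUSG00000025701.13), the enzyme that starts leukotriene synthesis, fell from 538.1, 549.1, 564.6 and 508.3 to 160.9, 67.2, 142.1 and 65.3 CPM (-2.31 ± 0.29, adjusted p = 8.78e-05). Ltc4s, which makes leukotriene C4, fell by 1.53 and Pla2g4a, which frees arachidonic acid, by 0.99 on the log2 scale. Ptges, the inducible prostaglandin E synthase, and the receptor Ptger4 rose 4.40-fold and 2.22-fold, but Ptgs2, the inducible cyclooxygenase upstream of Ptges, had 1 count over all 8 libraries.

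Matrix proteases and the plasminogen system rose in 15 of 17 tested genes and fell in 2, Mmp8 and Mmp27 (-2.35). Mmp2, a gelatinase, stood at 37.6, 43.5, 41.0 and 43.9 and at 1.53, 1.68, 0.969 and 0.874 CPM. Timp1, an inhibitor of the metalloproteinases, rose 17.6-fold to 3.20 ± 0.877 CPM. Growth factors had 8 of 15 risen and 4 fallen. Pdgfb, a mitogen of mesenchymal cells, stood at 145.2, 339.6, 157.9 and 309.6 and at 2.63, 2.64, 3.33 and 2.95 CPM, and Areg, an epidermal growth factor receptor ligand, rose 83.7-fold to 36.2 ± 19.8 CPM. Gas6 and fibronectin (Fn1) fell, by 1.98 and 2.46 on the log2 scale. Of 18 integrins and adhesion molecules 9 rose and 3 fell: the fibronectin receptor subunit Itga5 rose 4.07-fold and Itgam (CD11b) 2.07-fold.

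**Figure D4:**
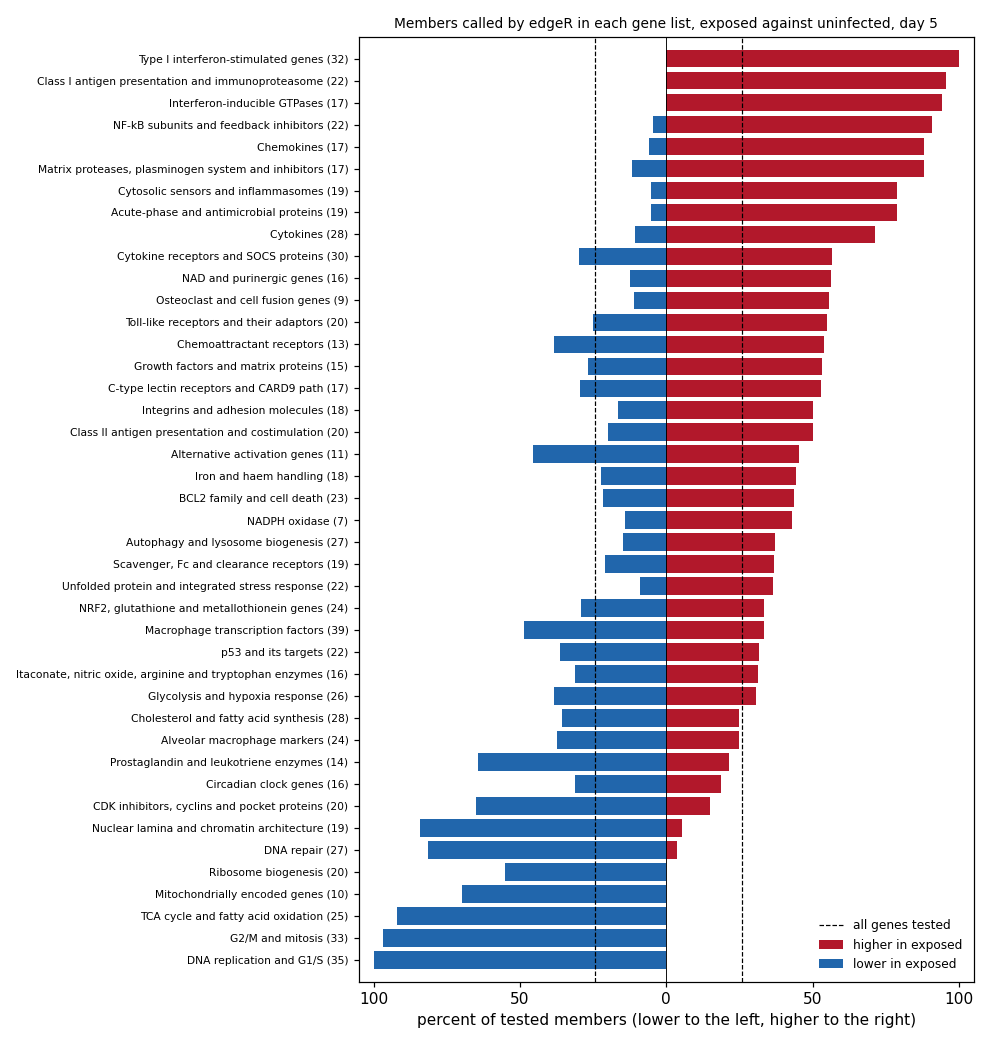
For each gene list (tested members in brackets) bars give the percent of tested members called higher (red, to the right) and lower (blue, to the left) by edgeR at an adjusted p under 0.05. Dashed lines mark the shares over all 16321 genes, 25.7% higher and 24.5% lower. The interferon list reaches 100% higher and the G1/S list 100% lower.

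Cell cycle genes fell nearly without exception. All 35 tested genes of DNA replication and G1/S fell (median -1.83), and 32 of 33 of G2/M and mitosis did (median -1.99), with Pttg1, securin, not called (-0.17, adjusted p = 0.214). Fen1 (ENSMUSG00000024742.16), a nuclease that trims Okazaki fragments, fell from 217.7, 214.2, 209.8 and 186.3 to 68.2, 39.4, 48.8 and 42.8 CPM (-2.06 ± 0.16, adjusted p = 2e-06). Ccnb1 (ENSMUSG00000041431.17), mitotic cyclin B1, fell from 127.3, 120.8, 116.1 and 107.5 to 39.5, 19.4, 33.2 and 18.1 CPM (-2.10 ± 0.23, adjusted p = 4.14e-05). Their transcripts remained measurable in every exposed library. Mki67, the proliferation antigen, stood at 233.8, 146.4, 204.7 and 119.3 and at 468.9, 472.3, 352.7 and 310.0 CPM, and Anln, a cytokinesis protein, fell 5.76-fold. Licensing factor Cdt1 and cyclin Ccne1 fell 2.57-fold and 2.71-fold. Of 27 DNA repair genes 22 fell, among them Blm, Msh6 and Chek2 by 1.27, 1.20 and 1.41 on the log2 scale. Trp53bp1 was called higher (0.27, adjusted p = 0.0361), and 0 repair genes were so without exposed replicate 4 or without any of the 4 uninfected replicates, and 2 without exposed replicate 3.

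Promoters of 3 of these genes are shown for matches to the E2F motif (Mcm6) and to the CHR element of mitotic genes (Cdc20 and Mki67), again the 200 bases before the start with matches in capitals. Mcm6, a subunit of the replicative helicase (172.2 ± 14.5 to 53.6 ± 20.3 CPM), is at chr1:128359706-128359905 (minus strand) with 3 matches, of which 2 overlap. Cdc20, an activator of the anaphase-promoting complex (28.1 ± 3.68 to 5.73 ± 2.38 CPM), is at chr4:118437344-118437543 (minus strand). Mki67 is at chr7:135716380-135716579 (minus strand) with 2 matches.
Mcm6: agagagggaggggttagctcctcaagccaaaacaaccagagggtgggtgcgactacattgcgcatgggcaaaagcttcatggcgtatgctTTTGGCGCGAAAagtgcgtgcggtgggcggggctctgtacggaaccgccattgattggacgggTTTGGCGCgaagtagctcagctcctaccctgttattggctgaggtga
Cdc20: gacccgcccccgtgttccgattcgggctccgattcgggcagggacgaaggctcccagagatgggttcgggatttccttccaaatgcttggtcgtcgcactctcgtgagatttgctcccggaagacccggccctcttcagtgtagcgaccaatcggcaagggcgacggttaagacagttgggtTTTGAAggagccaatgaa
Mki67: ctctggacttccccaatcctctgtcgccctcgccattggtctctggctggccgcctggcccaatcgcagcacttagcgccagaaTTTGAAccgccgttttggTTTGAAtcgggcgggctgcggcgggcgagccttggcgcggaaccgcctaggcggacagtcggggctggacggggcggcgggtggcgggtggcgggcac
The E2F letters TTTNGCGC were in 12 of 37 promoters of the G1/S list (32.4%) and in 1.38% of all promoters, and the CHR letters TTTGAA in 21 of 29 promoters of the G2/M list (72.4%) and in 17.9% of all promoters, on either strand. For these lists 29 of 35 and 27 of 33 genes had a promoter in the table.

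CDK inhibitors were listed together with cyclins, kinases and E2F factors that drive the cell cycle, so that counts over this list do not measure arrest. Of these 20 CDK inhibitors, cyclins, pocket proteins and related genes 3 rose and 13 fell. Cdkn1a (ENSMUSG00000023067.15), the inhibitor p21, stood at 206.3, 358.5, 183.7 and 320.2 and at 299.2, 303.2, 300.1 and 268.1 CPM and was not called (-0.13 ± 0.20, adjusted p = 0.598). Its exposed libraries lay on both sides of the uninfected ones. Cdkn2a, which encodes p16 and p19ARF, fell from 12.9, 12.4, 11.7 and 9.39 to 4.42, 2.91, 3.12 and 3.04 CPM (-1.78 ± 0.17), and Cdkn2b, p15, was not called (-0.09, adjusted p = 0.728). The 3 cyclins of the D type fell, Ccnd1 5.86-fold, Ccnd3 4.93-fold and Ccnd2 by 0.59 on the log2 scale, while their kinase partner Cdk6 rose 2.06-fold. Trp53 rose 1.19-fold (adjusted p = 0.0369) and lost its call without exposed replicate 4 (adjusted p = 0.059) or uninfected replicates 1, 3 or 4 (0.0726, 0.0946 and 0.127), and with 5 other settings: DESeq2 (0.0538), voom (0.0591), the replicate block (0.102), a filter of at least 1 read (0.152) and library totals alone (0.203). Of 22 p53 pathway genes 7 rose and 8 fell: the death receptor Fas rose 4.62-fold and Gadd45a 2.38-fold, and Btg2 and Ei24 fell 2.13-fold and 1.66-fold.

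Genes of the nuclear lamina and chromatin architecture fell in 16 of 19 cases and rose in 1. Beside Lmnb1, the lamin B receptor Lbr fell from 53.7, 49.6, 46.1 and 41.8 to 19.4, 13.6, 13.6 and 14.2 CPM. Tmpo, which anchors chromatin to the lamina, fell 2.89-fold, and the high-mobility-group genes Hmgb1 and Hmgb3 fell 2.06-fold and 7.88-fold. Hmga1, a further high-mobility-group gene, was the exception, at 55.3, 129.4, 50.2 and 117.5 and at 14.8, 15.8, 15.8 and 13.9 CPM (2.55, adjusted p = 5.61e-05). Of 23 BCL2 family and cell death genes 10 rose and 5 fell, or 3 fell without exposed replicate 1. The anti-apoptotic Bcl2a1d and the caspase-8 inhibitor Cflar rose 5.12-fold and 4.74-fold, Mlkl, the executor of necroptosis, rose by 2.84 on the log2 scale, and the pro-apoptotic Bcl2l11 fell 1.90-fold. How reads shared by the near-identical Bcl2a1 genes were counted is likewise not given, so that levels of single members are less certain.

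Of 25 genes of the TCA cycle and fatty acid oxidation 23 fell and 0 rose (median -0.71). Idh1 (ENSMUSG00000025950.17), which makes cytosolic NADPH from isocitrate, fell from 278.6, 268.4, 322.2 and 326.8 to 64.1, 42.9, 56.3 and 35.3 CPM (-2.59 ± 0.18, adjusted p = 8e-07). Cpt1a, the gate for fatty acids into mitochondria, fell 2.44-fold and fumarase, Fh1, 2.01-fold. Of 10 tested mitochondrially encoded genes 7 fell, or 4 without exposed replicates 3 or 4 or uninfected replicates 3 or 4, which were each left out in turn. Among them mt-Nd1 fell 2.35-fold, and mt-Co1 (-0.49, adjusted p = 0.033) lost its call in each of these 4 fits (adjusted p between 0.0519 and 0.123). Of 26 glycolysis and hypoxia genes 8 rose and 10 fell, or 6 fell without exposed replicate 1. Slc2a6, a hexose transporter, Hk2, hexokinase 2, and Hif1a rose 4.8-fold, 2.42-fold and 2.10-fold, and Pdk1, which holds back pyruvate oxidation, fell 2.63-fold.

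Of 28 genes of cholesterol and fatty acid synthesis 7 rose and 10 fell (median 0.03), the former near the background. Srebf1, the regulator of lipogenesis, fell from 483.2, 512.8, 504.0 and 442.2 to 163.8, 93.0, 176.0 and 100 CPM, Acly, which supplies acetyl-CoA, from 1018 ± 56.7 to 372.0 ± 49.6 CPM, and the desaturase Scd2 from 3349 ± 159.5 to 1567 ± 247.7 CPM. Elovl6, Fasn and Scd1 fell by 1.98, 0.89 and 1.49 on the log2 scale. In sterol synthesis Cyp51 rose by 0.94, while Hmgcs1 fell by 0.68.

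Of 24 tested alveolar macrophage markers 6 rose, 9 fell and 9 were not called. Chil3 (ENSMUSG00000040809.11), a chitinase-like protein, fell from 12060, 12000, 19380 and 19450 to 2508, 2956, 4098 and 2138 CPM (-2.43 ± 0.26, adjusted p = 1.7e-05). Pparg (ENSMUSG00000000440.13), which encodes PPAR-gamma, fell from 385.1, 366.2, 394.4 and 350.6 to 223.7, 154.8, 186.7 and 159.3 CPM (-1.05 ± 0.13, adjusted p = 5.88e-05), and its lipid-binding target Fabp4 fell by 1.06 on the log2 scale. The scavenger receptor Marco, at 2843, 2593, 1603 and 2154 and 2535, 2585, 1991 and 1769 CPM, the carbonic anhydrase Car4, at 1785, 2258, 2041 and 1685 and 1528, 1432, 1766 and 1613 CPM, and the sialic acid receptor Siglecf, at 9.66, 8.38, 8.60 and 5.31 and 7.37, 7.04, 6.52 and 7.12 CPM, were not called. Siglecf was called higher without exposed replicate 4 (0.37, adjusted p = 0.0334). Itgax (CD11c) rose 4.81-fold. Marco, Car4 and Siglecf thus had counts in every library of both groups, and Kcnip4 did not pass the filter. Genes of alternative activation, of which 11 of 18 passed the filter, had 5 risen and 5 fallen.

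Of 39 macrophage transcription factors 13 rose and 19 fell. Fos (ENSMUSG00000021250.14), an immediate-early AP-1 subunit, fell from 238.3, 282.0, 274.8 and 285.4 to 39.9, 26.1, 39.1 and 26.6 CPM (-3.04 ± 0.17, adjusted p = 1.35e-07), and Klf4, Egr1 and Myc fell by 1.62, 1.93 and 1.54 on the log2 scale. Irf4, a regulator of macrophage polarisation, stood at 18.1, 36.1, 31.3 and 41.9 and at 2.60, 2.70, 2.52 and 2.40 CPM, and Batf2, an interferon-inducible AP-1 factor, rose 24.7-fold. Irf8, a lineage factor of macrophages, fell by 1.76 and Spi1, which encodes PU.1, by 0.53. Among 9 tested osteoclast and fusion genes 5 rose, 1 fell and 3 were not called, and the fall was not called under every alternative. Of the 14 genes listed, Ocstamp, Calcr, Siglec15, Oc90 and Adam12 did not pass the filter. The phosphatase Acp5 rose from 164.9 ± 11 to 1012 ± 294.2 CPM and the protease Ctsk from 1010 ± 80.9 to 2709 ± 562.2 CPM. The fusion receptor Dcstamp rose from 0.477 ± 0.194 to 10.6 ± 3.54 CPM. The osteoclast regulator Nfatc1 was not called (0.09, adjusted p = 0.579).

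In the list of 22 genes of the unfolded protein and integrated stress responses 8 rose, 2 fell and 12 were not called, while 5 fell with library totals alone and 4 with all 16 libraries fitted together. Those that rose included the ATF4 targets Ddit3, Chac1 and Ddit4, at 4.03-fold, 4.22-fold and 3.79-fold, while the chaperone Hspa5 was not called (0.56, adjusted p = 0.0541) and Xbp1 fell from 339.3, 342.9, 377.3 and 344.7 to 135.3, 142.3, 123.0 and 145.1 CPM. Of 27 autophagy and lysosome genes 10 rose and 4 fell: the cathepsin Ctsb went from 1232 ± 75.7 to 3552 ± 932.7 CPM, the receptor Optn rose 2.16-fold, and Ctsc and Map1lc3a fell 2.04-fold and 1.99-fold. Ribosome biogenesis had 11 of 20 fallen and 0 risen, and 0 fell 2-fold or more. The largest fall was that of Nolc1 (1.87-fold), and Nop56 fell from 100.7 ± 2.88 to 65.5 ± 1.12 CPM. Among NAD and purine genes (9 of 16 risen, 2 fallen) Cd38, which consumes NAD, rose 6.97-fold, and the adenosine receptors Adora2a and Adora2b rose 21.5-fold and 2.08-fold. Clock genes lay near the background, with 3 of 16 risen and 5 fallen. Leaving out exposed replicates 1 or 4 or uninfected replicate 1 left 2 fallen, and leaving out uninfected replicates 3 or 4 left 3.

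Ranked by fold change, the genes that rose most, with libraries that did not overlap and at least 5 CPM in exposed cells, included several at the limit of detection in uninfected cells. Vtcn1, an inhibitory B7 family ligand, and Cldn34b4, a claudin, had 0 counts there and were at least 576.5-fold and 516.3-fold higher in exposed cells, at 7.56, 6.93, 4.10 and 4.19 and 3.49, 7.99, 4.27 and 5.17 CPM. Penk, the proenkephalin precursor, had 1 count in uninfected and 2358 in exposed cells, a ratio of 2658 (95% interval from counting error 476.7 to 105000). That count came from uninfected replicate 1, and without it Penk was at least 644.5-fold higher. Tnfrsf11b, osteoprotegerin, a decoy receptor for RANKL, had 3 and 4922 counts, a ratio of 1850 (95% interval from counting error 632.6 to 8972). Slfn4, a schlafen family gene, stood at 138.1, 142.6, 588.7 and 417.7 CPM against 34 counts in all over uninfected libraries, and Apol9b, an apolipoprotein L gene, at 97.3, 193.8, 123.8 and 215.5 CPM against 35. Slfn4 was the higher in replicates 3 and 4, unlike the interferon list. At the other end Skint3 (5.70, 5.16, 5.47 and 4.90 to 0.121, 0, 0.142 and 0.119 CPM), Cd244a, an immune receptor (38.5, 36.3, 53.5 and 63.4 to 1.22, 0.675, 1.65 and 0.611 CPM), and the ribonuclease Rnase2b (5.06, 5.17, 6.81 and 5.38 to 0.134, 0.127, 0.284 and 0.119 CPM) fell 56.1-fold, 46.3-fold and 34.1-fold. Cytip, which regulates cell adhesion, fell from a high level, 609.1 ± 25.9 CPM, to 36.6 ± 16.5 CPM. Ckmt1, a mitochondrial creatine kinase, fell 23.5-fold, the netrin receptor Unc5b 14.8-fold and the tyrosine kinase Bmx 18.9-fold.

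By absolute level, Fth1, Lyz2, Ccl9, Il1a, Csf2rb, Inhba, Ctsb and Mfge8 gained most. Mfge8, a bridge for the uptake of dying cells, stood at 2373, 2233, 1759 and 1681 and at 253.3, 277.6, 241.1 and 225.1 CPM (3.01 ± 0.16). Chil3, Actb, mt-Co1, Csn2, Selenop, Scd2, mt-Cytb and Adipor2 lost most. Csn2, which encodes beta-casein, fell from 2654, 2851, 2489 and 2044 to 677.2, 832.3, 511.6 and 562.7 CPM (-1.96 ± 0.18), and Adipor2, an adiponectin receptor, fell 2.01-fold. Selenop, a selenium carrier, had overlapping libraries at 1562, 1967, 3216 and 1104 and 2879, 2804, 4075 and 5452 CPM, and its call (adjusted p = 0.0307) was lost without exposed replicates 1 or 4 or uninfected replicates 3 or 4 (adjusted p between 0.0648 and 0.0862).

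Markers of other cell types were compared by their summed levels. Summed CPM lay between 0.239 and 0.551 in exposed and 0.152 and 0.207 in uninfected libraries for 10 T and NK cell markers, and between 0.119 and 0.603 and 0.211 and 0.485 for 7 B cell markers. Only 1 T and NK cell marker was tested and it rose (2.29), though not under every alternative, and 0 B cell markers were tested. The 10 erythroid, mast cell and megakaryocyte markers summed to 2.05 to 5.28 and 1.47 to 2.10 CPM, and the only 1 tested rose (1.13). The 8 fibroblast markers summed to 15.0 to 17.6 and 20.0 to 22 CPM, with 1 of 3 tested risen (5.82) and 1 fallen. The 8 epithelial markers summed to 14.3 to 24.6 and 70.5 to 75.4 CPM, nearly all of it from Cdh1, E-cadherin, which fell from 69.5 ± 1.90 to 17.6 ± 4.77 CPM. Epcam, Krt8, Krt18, Sftpc, Sftpb and Cldn3 did not pass the filter. The 9 dendritic cell markers summed to 31.4 to 41.4 CPM in exposed and 12.8 to 14.9 CPM in uninfected cells, and 4 of 4 tested rose, while Flt3, Xcr1, Siglech, Fscn1 and Cd209a did not pass the filter. The 6 endothelial markers summed to 139.6 to 190.7 CPM in exposed and 261.5 to 357 CPM in uninfected cells, with 2 of 5 tested risen and 1 fallen. Pan-macrophage and myeloid markers summed to 7866 to 13100 and 3785 to 4158 CPM, most of it Lyz2, with 8 of 10 risen and 1 fallen. Of these, Ptprc (CD45) rose from 290.6 ± 8.69 to 390.3 ± 49.5 CPM and Adgre1 (F4/80) was not called (0.22, adjusted p = 0.325). The part of other cells in the results was not tested.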

How the data were processed

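The 8 day 5 libraries of MPI-2 cells, 4 exposed and 4 uninfected, were analysed from raw counts per gene. The authors deposited reverse-strand read counts, made with STAR against GRCm39 per the submitters' processing notes; the STAR version and annotation are not given in the sources used here. Replicates were not pooled, and 55359 genes are listed, of which 52083 were matched to a symbol. Counts without a symbol were 0.449% of the total.

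Genes passing edgeR's filterByExpr (16321) were fitted on the 8 libraries alone with TMM scaling and the robust quasi-likelihood test (edgeR 4.0.16, R 4.3.3), with Benjamini-Hochberg adjustment over all of them and a threshold of 0.05. A standard error is the log2 fold change divided by the square root of F. Log2 CPM used a prior count of 2. The procedure was tested on simulated data for these 4 against 4 libraries (16321 genes simulated, 16056 fitted): 29.4% of 68 genes changed 1.5-fold, 68.2% of 66 changed 2-fold and 87.9% of 66 changed 4-fold were recovered, and 18 of 15859 unchanged genes were called. That simulation changed far fewer genes than were called here and gave both groups the same spread, unlike these data. Its shares recovered therefore need not hold for the real comparison. Total counts between 54252976 and 81284210 set the precision of low genes, and intervals and floors (3 counts) cover counting error only.

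The members and gene lists were chosen with earlier results of these data known, so that counts over lists are descriptions and no list was tested. Named genes are the 12 highest and 12 lowest log2 fold changes (at least 5 CPM, no overlap of libraries), the 8 largest rises and 8 largest falls in mean CPM, the 8 genes most variable among exposed libraries (at least 20 CPM), up to 4 members of each list with the smallest p, and 20 genes always named. Other list members in the text were chosen after their values were seen. The labels do not say whether equal replicate numbers mark paired samples, and the main fit did not pair them. Alternatives were RLE and upper quartile scaling, library totals alone, other filters, DESeq2 1.42.0, limma's voom (3.58.1), a fit with the day 1 libraries, a replicate block and leaving libraries out. Promoters came from RefSeq tables of GRCm38.p6. Expression of the bacterium and the day 1 comparison are not analysed here, and some genes covered by the naming rule are not reported here.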

Additional observations from a re-analysis of the deposited data

Results flagged for a closer look

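Of 382 groups of 4 values checked over the named genes, 17 (4.45%) held a library whose gap to its nearest neighbour exceeded Dixon's 95% limit for 4 values. Chance flags about 1 in 20 such groups, or 19.1 here. The causes were not tested.

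Uninfected replicate 4 was set apart in 8 of the 17. It was the highest uninfected library for Lyz2 at 2598 CPM (nearest 2109) and for Ctsk at 1130 CPM (nearest 984.8). It was the lowest for Gbp9 at 3.66 CPM, Cybb at 244.6, Ephx1 at 30.8, Msh6 at 41.0, Alcam at 61.5 and Cdkn1a at 268.1 CPM. Uninfected replicate 3 was the highest for Xbp1 at 377.3 CPM and Ctsc at 1178 CPM, and uninfected replicate 2 the lowest for Fh1 at 84.2 CPM.

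Among exposed libraries, replicate 1 was the highest for Lbr at 19.4 CPM and for Cdkn2a at 4.42 CPM. Replicate 3 was the lowest for Rac1 at 211.6 CPM and the highest for Bcl2a1d at 961.7 CPM. Replicate 4 was the lowest for Odc1 at 126.9 CPM and the highest for Nop56 at 67.2 CPM. Apart from Cdkn1a, each of these genes was called and had exposed and uninfected libraries that did not overlap. Of all genes tested 50.2% were called, and libraries lay apart in 23.4% (exposed above) and 24.8% (exposed below).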

How the results depend on the processing

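Over 20 alternatives, 0 genes were called in the opposite direction. With replicates 1 and 2 alone 2560 genes rose and 2485 fell, and with replicates 3 and 4 alone 2337 rose and 1871 fell, against 4187 and 3998 with all libraries. With a filter of 1 CPM in 4 libraries 1432 genes rose at least 2-fold, against 2176. Leaving out each library in turn gave 3614 to 4499 genes higher, 3421 to 4360 lower, 2111 to 2397 at least 2-fold higher and 1287 to 1676 at least 2-fold lower, and 0 to 8 of 11 library shares passed the adjustment. The 8 came without exposed replicate 2 (lowest adjusted p = 0.0393).

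Replicate numbers were not used as pairs in the main fit. Same-numbered deviations correlated at 0.06, 0.00, -0.10 and -0.08, and not every sample correlated best with its own number. With so few libraries these values do not settle whether the numbers mark pairs. The fit with a replicate block called 3726 genes higher and 3620 lower. Library totals alone moved the median log2 fold change from 0.03 to -0.06 and the share of calls that were higher from 51.2% to 43.0%.

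Leaving out each library in turn kept 83.1% to 96.5% of all higher calls and 83.1% to 95.5% of all lower calls. The filter of 1 CPM, which tests fewer genes, kept 77.6% and 81.9%. Named genes were mostly chosen for small p or large changes in these data, so that their calls are likelier to hold. Of 208 called named genes, 4 lost their call under an alternative other than the replicate pairs alone: mt-Co1, Selenop, Gm2000 and Trp53. Arg1 and Siglecf, not called with all libraries, gained one. Arg1 fell also without both libraries of the other code (-1.99, adjusted p = 0.0434), and 0 named genes reversed. Counts per list moved by more than 1.5 times in 80 of 1836 cases outside the replicate pairs. With the filter of 1 CPM, fallen members numbered 2 in place of 4 for scavenger receptors, 3 in place of 5 for itaconate and related enzymes and for clock genes, 4 in place of 7 for mitochondrially encoded genes and 1 in place of 2 for NAD genes. With library totals alone 3 oxidase genes fell in place of 1. In the simulation, whose setting differed from these data, 1.5-fold changes were often missed. Genes not called cannot be read as unchanged.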
